A study of Homo sapiens with 6 samples.

Results

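The 9 genes described here belong to the NRF2 antioxidant pathway. NFE2L2 encodes the transcription factor NRF2, KEAP1 encodes its inhibitor, and HMOX1, NQO1, GCLC, GCLM, TXNRD1, SRXN1 and TXN are target genes that act in antioxidant defence. They were found by gene symbol in the deposited expression table, which lists 20030 genes, and all 9 were present. In unstressed cells KEAP1 holds NRF2 in the cytoplasm and passes it to a cullin ubiquitin ligase for degradation. Oxidants and electrophiles modify KEAP1, and NRF2 then accumulates, pairs with a small MAF protein in the nucleus and binds antioxidant response elements in the promoters of its targets. In kidney cancer the pathway is best known from papillary tumors, in which NFE2L2, KEAP1 and CUL3 are recurrently altered.

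The cells were 786-O, an established human line that came from a clear cell renal cell carcinoma (ccRCC), at passages 16 to 18. YB1, the product of YBX1, is a cold shock domain protein that binds mRNA and DNA. The knockdown cells (shYB1) stably carried a lentiviral small hairpin RNA (shRNA) against YB1, the control cells (vector) carried a scrambled shRNA, and both were harvested 7 days after puromycin selection. Each of the 2 groups had 3 RNA-seq libraries, and the comparison asks which mRNAs differ when YB1 is lowered. The design text of the series speaks of 3 different hairpins, whereas the library labels give a single shYB1 group, so which hairpin a library carried is not given in the sources used here. Whether the stable cells are a pool or a clone is not given either. No source says that the replicates came from separate cultures, so p-values measure only the spread between these libraries, which may be technical.

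Expression is given in FPKM as deposited by the authors, that is, fragments scaled to transcript length and to the size of the library, so that levels of different genes can be compared per length. The FPKM summed over all listed genes ran from 282736 in vector replicate 1 to 295887 in vector replicate 3, with 285094, 288536 and 290881 with shYB1. FPKM hold no fragment counts and the sequencing depth is unknown. The spacing of the lowest values put the depth of the 6 libraries between 0.98 and 1.1 times that of shYB1 replicate 1. In a culture, fewer cells that express a gene and less mRNA per cell cannot be told apart.

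The hairpin's own target was examined first. YBX1 measured 366, 373 and 378 FPKM with the vector and 167, 166 and 173 FPKM with shYB1. Every shYB1 library was thus far below every vector library, and the mean level was 0.453 times that of the vector cells. The log2 fold change was −1.14 with a standard error (SE) of 0.0312 (limma, Benjamini-Hochberg (BH) adjusted p = 1.53e-08). In GENCODE release 29, 30.7% of the 50-base words of YBX1 transcripts also occur in other genes, so that its level is uncertain to that extent.

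Markers of the line were present in both groups. PAX8, a renal lineage transcription factor, measured 76.8, 77.2 and 77.3 FPKM with the vector and 78.1, 75.6 and 78.7 FPKM with shYB1, and these ranges overlap. PAX2, a related factor, was called higher (16.5, 17.5 and 17.4 against 19.5, 18.1 and 19.3 FPKM, log2 fold change 0.15, limma BH-adjusted p = 0.0392, from 0.0293 to 0.166 over the alternatives) and was not called after median-of-ratios scaling. CDH2 was above the vector libraries in every shYB1 library, and EPAS1 and CA9 were below them in every shYB1 library. These 3 were not called as deposited, and EPAS1 and CA9 were called lower after median-of-ratios scaling (limma, BH-adjusted p = 0.00859 and 0.018). The 8 renal tumor markers (PAX8, PAX2, EPAS1, CA9, VIM, KRT8, KRT18 and CDH2) summed to 1859, 1880.4 and 1951 FPKM with the vector and to 1926, 1945 and 1959.8 FPKM with shYB1, most of it VIM. The immune markers PTPRC and CD3E, the endothelial marker CDH5 and the fibroblast marker COL1A2 were at or near 0 in all libraries. The endothelial list (PECAM1, CDH5, VWF and KDR) summed to at most 0.475 FPKM in any library, with PECAM1 the most abundant, and the fibroblast list (COL1A1, COL1A2, DCN and LUM) to at most 2.70 FPKM, most of it LUM. The immune list (PTPRC, CD3E, CD68 and LYZ) summed to 26.5, 27.9 and 25.5 FPKM with the vector and to 22.2, 23.2 and 23.9 FPKM with shYB1, nearly all of it CD68, a lysosomal gene that many cell types express. CD68 was lower in shYB1 cells, with a log2 fold change of −0.16 (limma, BH-adjusted p = 0.00969), and the part of CD68-positive cells in the results below was not tested.

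The 9 members covered a wide range of levels. TXN, the cytosolic thioredoxin, was the most abundant in vector cells at 234 ± 6.31 FPKM (SD, n = 3), a level above that of 98.4% of the genes tested. TXNRD1, the reductase that recycles thioredoxin, followed at 57.9 ± 0.434 FPKM (SD, n = 3). NFE2L2 at 34.2 ± 1.12 FPKM and NQO1 at 32.5 ± 1.41 FPKM (SD, n = 3 each) had overlapping ranges, although NFE2L2 was above NQO1 within each vector library. HMOX1 at 22.3 ± 1.41, SRXN1 at 18.6 ± 0.544 and KEAP1 at 11.5 ± 0.731 FPKM (SD, n = 3 each) came next, each above the following gene in all libraries. The glutamate-cysteine ligase subunits were the lowest, with GCLM at 8.37 ± 0.0653 FPKM and GCLC at 5.18 ± 0.316 FPKM (SD, n = 3 each). GCLC still lay above 39% of the genes tested, so no member was among the weakly expressed genes tested.

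The order by mean level differed between the groups for 1 pair of members. In shYB1 cells NQO1 at 42.1 ± 0.972 FPKM stood above NFE2L2 at 31.4 ± 0.549 FPKM (SD, n = 3 each) in every library, whereas NQO1 was the lower of the pair in every vector library. KEAP1 and GCLM kept their order, and KEAP1 was above GCLM within every library of both groups. The ranges of KEAP1 at 11.1 ± 0.398 FPKM and GCLM at 10.2 ± 0.87 FPKM (SD, n = 3 each) overlapped in shYB1 cells but not in vector cells.

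**Figure D1:**
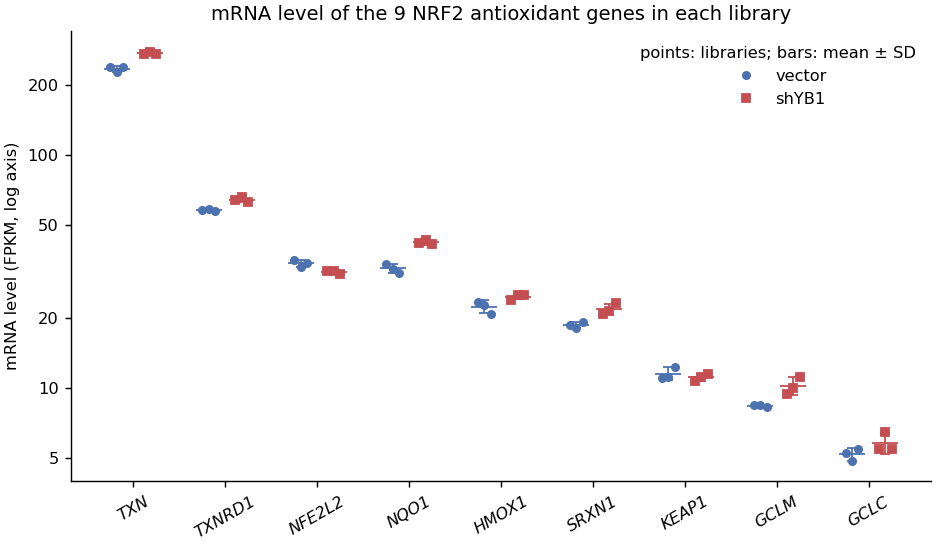
mRNA levels of the 9 NRF2 antioxidant genes (FPKM, log axis) in the 3 vector libraries (circles) and the 3 shYB1 libraries (squares), with the mean and SD of each group as bars and the genes in order of their vector level. The levels run from 5.18 FPKM for GCLC to 234 FPKM for TXN in vector cells. The squares of NQO1, GCLM, TXNRD1, SRXN1, TXN and, by a narrow margin, HMOX1 lie above their circles.

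YB1 knockdown cells expressed most of the 7 target genes among the members at slightly higher levels and NFE2L2 itself at a slightly lower level. These 7 are not all targets of NRF2, and companion genes described below were called in both directions. NQO1, GCLM, TXNRD1, SRXN1 and TXN were called higher and NFE2L2 was called lower at an adjusted p under 0.05, while KEAP1, HMOX1 and GCLC were not called (limma on log2(FPKM + 0.1), BH over 10439 genes averaging 1 FPKM or more). Among all genes tested, 18.7% were called higher and 6.93% lower, and 5 of 9 members were higher and 1 of 9 lower. The lower call, that of NFE2L2, was lost under 8 of 14 alternatives, among them 5 of the 6 that leave out a library (limma, BH-adjusted p from 0.0704 to 0.137 in these 5). The shYB1 libraries were all above the vector libraries in 6 members, against 30.1% of all genes, and all below them in 1 member, against 12.5% of all genes. All changes were small. The ratio of mean FPKM was highest for NQO1, at 1.3, and no member met the criteria named in the methods of the study, a fold change of 2 with a p under 0.05 (taken here as unadjusted), which 0.22% of all genes met with limma. At an unadjusted p under 0.05 alone, 7 of 9 members passed, against 39% of all genes. The median log2 fold change was 0.15 over the 9 members and 0.22 over the 7 targets, against 0.055 over all genes tested.

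Scaling of the libraries shifts these counts. As deposited, 73% of the 2679 genes called were higher in shYB1 cells, and with median-of-ratios scaling 47.9% of the calls were higher. So scaled, 11.2% of the genes tested were called higher and 12.2% lower, and among the members 4 were higher (NQO1, GCLM, SRXN1 and TXN) and NFE2L2 was again lower. The median over the 9 members was then 0.10 and that over all genes −0.001. With both scalings, 7 members had a log2 fold change above the median of all genes. Because 0.1 FPKM is added before the logarithm, the fold changes of weakly expressed genes are understated.

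**Figure D2:**
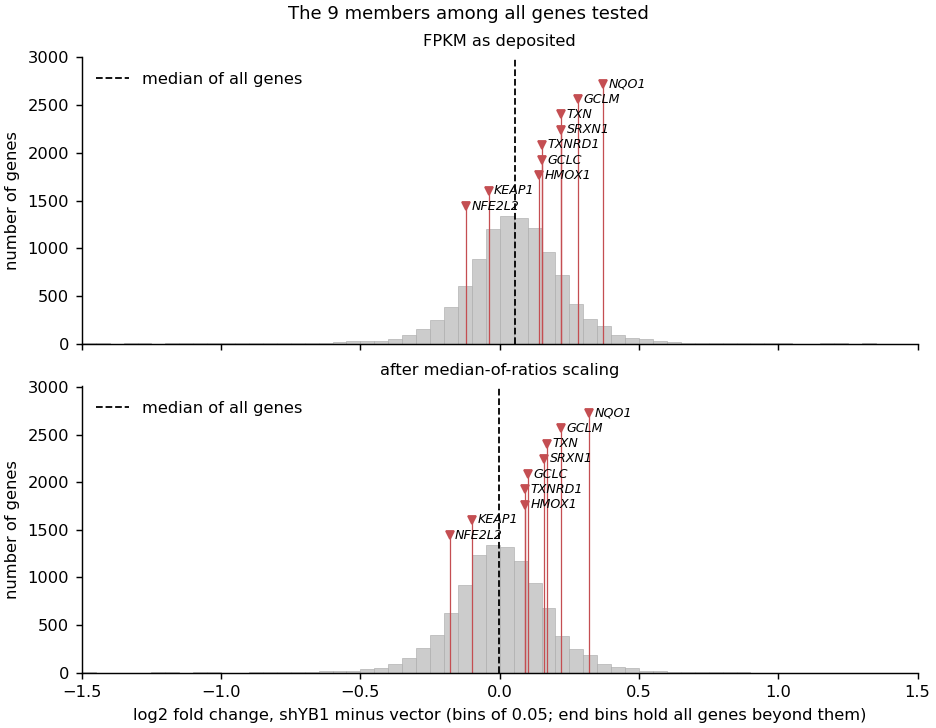
Number of genes (vertical axis) by log2 fold change, shYB1 minus vector, in bins of 0.05, for FPKM as deposited (upper panel) and after median-of-ratios scaling (lower panel), with the 9 members marked by triangles and the median of all genes by a dashed line. The 7 targets lie to the right of the dashed line in both panels and NFE2L2 and KEAP1 to the left, well within the bulk of all genes apart from NQO1, which 3.51% of the genes tested exceeded as deposited.

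The transcription factor and its inhibitor are described first. NFE2L2 (chromosome 2, 177230303 to 177264727, minus strand, RefSeq annotation of GRCh38.p14) measured 35.3, 33.0 and 34.2 FPKM with the vector and 31.8, 31.7 and 30.8 FPKM with shYB1. The 3 shYB1 libraries were the lowest, and the nearest pair, 31.8 and 33.0 FPKM, were close to each other. The log2 fold change was −0.12 (SE 0.0381, 95% interval −0.21 to −0.04, limma BH-adjusted p = 0.0407). The two-sided exact permutation test gave p = 0.1, and no smaller p can be reached with 3 libraries per group. The call was near the threshold and was lost under 8 of 14 alternative settings, with limma BH-adjusted p between 0.0109 and 0.137. It was lost without vector replicate 1 (0.137) or 3 (0.0704) and without shYB1 replicate 1 (0.0774), 2 (0.0856) or 3 (0.112), all limma BH-adjusted p, while the log2 fold change stayed between −0.18 and −0.10 over all alternatives. Of the exonic bases of NFE2L2, 17.6% are shared with AC019080.1 on the same strand in GENCODE release 29.

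KEAP1 (chromosome 19, 10486125 to 10503356, minus strand) encodes the adaptor through which the ligase captures NRF2. It measured 11.0, 11.1 and 12.3 FPKM with the vector and 10.7, 11.1 and 11.5 FPKM with shYB1. The groups overlapped, and the highest value of all was that of vector replicate 3. KEAP1 had a log2 fold change of −0.04 with a 95% interval from −0.17 to 0.08 (limma, BH-adjusted p = 0.607), and without vector replicate 3 it was 0.01. The exact permutation p was 0.7. The NFE2L2 to KEAP1 ratio within each library was 3.19, 2.98 and 2.78 in vector cells and 2.97, 2.84 and 2.67 in shYB1 cells, and these values overlapped as well (exact permutation p = 0.4).

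Promoter windows of the members were searched for the letters of the antioxidant response element core, TGACNNNGC, which NRF2 binds with its MAF partner, and of the Y-box core, ATTGG, after which YB1 is named. Both strands were read, in windows of 300 bases from 250 before to 50 after each annotated start (RefSeq, GRCh38.p14), and 8 members (all but HMOX1) had 11 windows. The antioxidant response element core was found in 4 of these 11 windows, in KEAP1, GCLM and TXNRD1, and in 13.3% of all 35116 promoter windows. The Y-box core was found in 3 of 11 windows, in GCLC and TXNRD1, and in 34.6% of all windows. No match of the first motif overlapped a match of the second. A match describes the letters of the window and does not show binding, and the windows are short, so a window without one says nothing of the rest of the promoter. The matches of KEAP1, which encodes the inhibitor of the factor that binds this motif, lie in the second of its 2 windows, 54 and 31 bases before that start. They are shown on the gene's strand with the matching letters in capitals, the second in reverse orientation, at chr19:10502807-10502835 and chr19:10502784-10502812 on the minus strand.
KEAP1 match 1: acttttattgTGACACGGCgggcgcccgg
KEAP1 match 2: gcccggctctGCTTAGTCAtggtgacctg

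NQO1 had the clearest difference of all members. It encodes the NAD(P)H quinone dehydrogenase that reduces quinones to hydroquinones in a single step and is widely used as a readout of NRF2 (chromosome 16, 69709401 to 69726560, minus strand). It measured 33.9, 32.4 and 31.1 FPKM with the vector and 41.8, 43.2 and 41.3 FPKM with shYB1. The groups were well apart, with a gap between 33.9 and 41.3 FPKM that exceeded the range within either group. The log2 fold change was 0.37 (SE 0.0409, 95% interval 0.28 to 0.47, limma BH-adjusted p = 0.000168). It was 0.32 after median-of-ratios scaling, and the call held under each of the 14 alternatives, with limma BH-adjusted p between 6.14e-05 and 0.00422. Even so, 366 of the 10439 genes tested had a larger positive fold change than NQO1. On the opposite strand, other genes cover 17.7% of its exonic bases in GENCODE release 29, and whether the counting used strand is not given in the sources used here. The same applies to PRDX1 (24.9%), SQSTM1 (22%) and MAFK (18.1%), described below.

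HMOX1 encodes heme oxygenase 1, the inducible enzyme that opens heme to biliverdin, iron and carbon monoxide (chromosome 22, 35381096 to 35394207, plus strand). Its level was 23.4, 22.7 and 20.7 FPKM with the vector and 23.9, 25.0 and 24.9 FPKM with shYB1. The shYB1 libraries were all above the vector libraries, but the nearest values, 23.4 and 23.9 FPKM, almost touched, and vector replicate 3 was apart from the other vector libraries. The log2 fold change of 0.14 (95% interval 0.03 to 0.26) did not pass (limma, BH-adjusted p = 0.0573). It passed without vector replicate 1 (0.0398) and with the filter at a mean of 5 FPKM (0.0414), and over all alternatives the limma BH-adjusted p ran from 0.0398 to 0.265.

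Glutamate-cysteine ligase, which catalyses the rate-limiting step of glutathione synthesis, has a modifier and a catalytic subunit, of which the first was called. GCLM encodes the modifier subunit (chromosome 1, 93885199 to 93909430, minus strand) and measured 8.41, 8.40 and 8.29 FPKM with the vector and 9.41, 10 and 11.1 FPKM with shYB1. The vector libraries were nearly identical, whereas the shYB1 libraries were all higher and more spread. Its log2 fold change was 0.28 (SE 0.0623, 95% interval 0.14 to 0.41, limma BH-adjusted p = 0.00968), and after median-of-ratios scaling it was 0.22 (limma, BH-adjusted p = 0.0307; 0.00563 to 0.0307 over the alternatives). GCLC encodes the catalytic subunit (chromosome 6, 53497341 to 53545101, minus strand) and measured 5.22, 4.85 and 5.48 FPKM with the vector and 5.46, 6.47 and 5.44 FPKM with shYB1. Its groups overlapped, and only shYB1 replicate 2 stood above all vector libraries. Without shYB1 replicate 2 the GCLC log2 fold change was 0.073 (limma, BH-adjusted p = 0.533). With all libraries it was 0.15 with a 95% interval from −0.02 to 0.33 (limma, BH-adjusted p = 0.178, and exact permutation p = 0.3). The interval contains the GCLM value, and the GCLM to GCLC ratio, 1.62 ± 0.109 in vector and 1.77 ± 0.254 in shYB1 cells (SD, n = 3 each), overlapped between the groups (exact permutation p = 0.5). A different response of the subunits was thus not shown.

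The matches of these genes are printed because they differ between the subunits. GCLM held an antioxidant response element core in reverse orientation 34 bases before its start, at chr1:93909446-93909474 on the minus strand, and GCLC held a Y-box core in reverse orientation 134 bases before its start, at chr6:53545221-53545245 on the minus strand. Capitals mark the matching letters.
GCLM response element: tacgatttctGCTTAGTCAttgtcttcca
GCLC Y-box: caactgcgacCCAATcacccttgca

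TXN and TXNRD1 were both called higher as deposited. TXN (chromosome 9, 110243810 to 110256507, minus strand) measured 237, 226 and 238 FPKM with the vector and 270.4, 277 and 271 FPKM with shYB1. The groups were separated by more than the range within either of them. The difference in log2 was 0.22 (SE 0.0316, 95% interval 0.15 to 0.29, limma BH-adjusted p = 0.000869) and held under all 14 alternatives, with limma BH-adjusted p between 0.000187 and 0.0136.

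TXNRD1 encodes the NADPH-dependent selenoenzyme that reduces thioredoxin (chromosome 12, 104215779 to 104350307, plus strand). It measured 57.7, 58.3 and 57.5 FPKM with the vector and 64.0, 65.8 and 62.8 FPKM with shYB1. The vector libraries differed by less than 1 FPKM and all shYB1 libraries were higher. TXNRD1 had a log2 fold change of 0.15 (SE 0.0324, 95% interval 0.08 to 0.22, limma BH-adjusted p = 0.00798). This call depended on the scaling, since median-of-ratios scaling lowered the estimate to 0.09 (limma, BH-adjusted p = 0.0544, the highest of a range from 0.00514 over the alternatives). The TXN to TXNRD1 ratio was 4.10, 3.88 and 4.13 in vector and 4.23, 4.21 and 4.32 in shYB1 libraries, so the substrate was higher relative to its reductase in every shYB1 library, by 1.05 times on average (exact permutation p = 0.1).

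TXNRD1 had matches of both motifs and therefore is shown in full. Its first window held antioxidant response element cores 99 and 8 bases before the start, the second of them in reverse orientation, at chr12:104215670-104215698 and chr12:104215761-104215789, and a reverse Y-box core 174 bases before the start at chr12:104215595-104215619. Its second window held a reverse response element core 102 bases before that start at chr12:104286920-104286948 and a reverse Y-box core 172 bases before it at chr12:104286850-104286874. All are on the plus strand, with the matching letters in capitals.
TXNRD1 response element 1: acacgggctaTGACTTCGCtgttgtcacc
TXNRD1 response element 2: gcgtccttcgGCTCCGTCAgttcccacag
TXNRD1 response element 3: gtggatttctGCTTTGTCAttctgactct
TXNRD1 Y-box 1: tctgcattttCCAATttacctttag
TXNRD1 Y-box 2: gtggtgtcacCCAATtaggagctct

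SRXN1 encodes sulfiredoxin, which restores peroxiredoxins whose active cysteine has been overoxidized (chromosome 20, 646615 to 653200, minus strand). It measured 18.6, 18.1 and 19.2 FPKM with the vector and 20.7, 21.3 and 23.1 FPKM with shYB1. All shYB1 libraries were higher, and shYB1 replicate 3 was the highest. Its log2 fold change was 0.22 (SE 0.0489, 95% interval 0.11 to 0.33, limma BH-adjusted p = 0.00944), with limma BH-adjusted p between 0.00554 and 0.0368 over the alternatives. The level of SRXN1 is uncertain, because AL121758.1 on the same strand covers 85% of its exonic bases in GENCODE release 29 and 84.7% of its 50-base words occur in another gene. Relative to its substrate PRDX1, SRXN1 was 0.05 ± 0.00157 in vector and 0.0542 ± 0.00275 in shYB1 cells (SD, n = 3 each), without overlap.

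**Figure D3:**
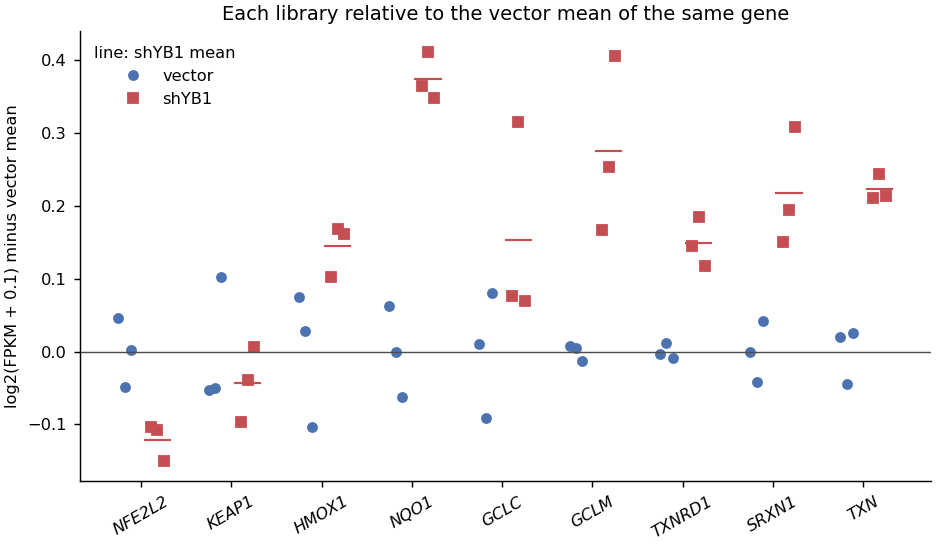
Each library's log2(FPKM + 0.1) minus the vector mean of the same gene, for the 3 vector libraries (circles) and the 3 shYB1 libraries (squares), with the shYB1 mean as a line. Circles and squares mix for KEAP1 and GCLC, nearly touch for HMOX1 and NFE2L2, and are separated for NQO1, GCLM, TXNRD1, SRXN1 and TXN.

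Ratios of targets to NFE2L2 within a library do not depend on the scaling of the libraries. NQO1 over NFE2L2 was 0.962, 0.982 and 0.909 with the vector and 1.32, 1.36 and 1.34 with shYB1. NQO1 mRNA was thus below NFE2L2 mRNA in each vector library and above it in each shYB1 library, and the mean ratio was 1.41 times higher. GCLM over NFE2L2 was 0.239, 0.254 and 0.243 in vector and 0.296, 0.316 and 0.361 in shYB1 libraries, 1.32 times higher on average. The mean ratio was 1.27 times higher for TXN and for SRXN1, 1.21 times for TXNRD1 and GCLC, and 1.2 times for HMOX1. None of the 7 ratios overlapped between the groups (exact permutation p = 0.1 each, unadjusted, over 12 ratios computed). The same ratio lay above the vector range in every shYB1 library for 53.2% of the other 10438 genes tested. All 7 share the same denominator, which was lower in shYB1 cells, so they are not separate observations and do not show that all 7 targets rose.

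**Figure D4:**
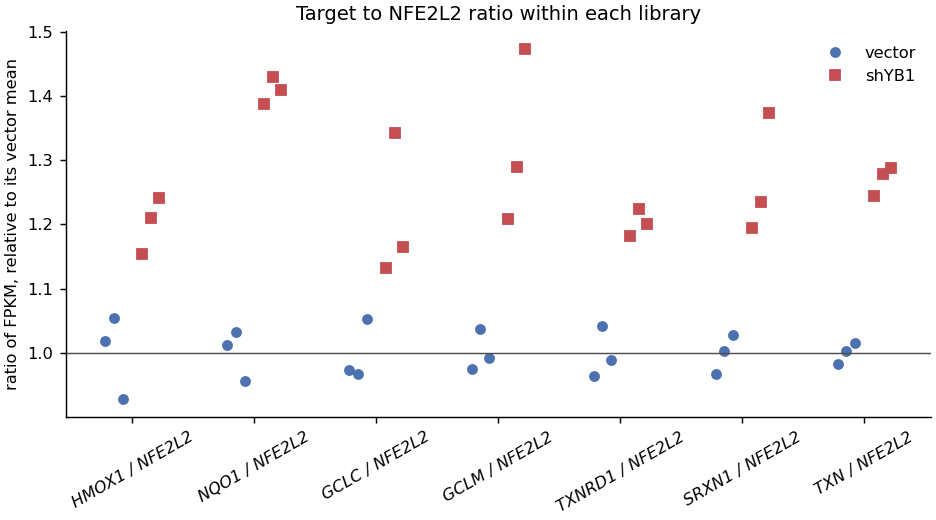
Ratio of the FPKM of each target to that of NFE2L2 within each library, divided by the mean ratio of the vector libraries, for 3 vector libraries (circles) and 3 shYB1 libraries (squares). The squares lie above the circles for all 7 targets, with mean ratios from 1.2 times (HMOX1) to 1.41 times (NQO1) the vector mean.

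The wider pathway was described with 8 lists of companion genes. Without the 9 members they held 83 genes, of which 67 were tested, and 9 were called higher and 9 lower with a median log2 fold change of 0.01, against 18.7% higher, 6.93% lower and a median of 0.055 over all genes. After median-of-ratios scaling 6 were higher and 12 lower, against 11.2% and 12.2% of all genes. The number called higher was 5 (7.46%) without vector replicate 1 or shYB1 replicate 1, against 12.7% and 14.2% of all genes under these settings. Without vector replicate 3 it was 15 (22.4%), against 18.6% of all genes, and with the filter at 5 FPKM 16 of 58 (27.6%), against 26%. Whether the share called higher lay below or above that of all genes thus depended on the setting, whereas the share called lower was above it with all 14 alternatives.

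Among 13 regulators and partners of NRF2, 12 were tested, and 2 were higher and 0 lower. The share higher was 16.7%, against 18.7% of all genes, of which 6.93% were lower. With the filter at 5 FPKM 4 were higher, against 26% of all genes under that setting. MAFK, a small MAF protein that pairs with NRF2, measured 6.10, 5.70 and 6.04 FPKM with the vector and 7.66, 7.66 and 7.96 FPKM with shYB1, well apart (log2 fold change 0.38, limma BH-adjusted p = 0.000812). SQSTM1, the autophagy receptor p62 that can sequester KEAP1, measured 94.0, 93.0 and 98.4 FPKM against 109, 110.1 and 109 FPKM (log2 fold change 0.20, limma BH-adjusted p = 0.00177). SQSTM1 was also the most abundant gene of this list. The competing repressor BACH1 (7.54 ± 0.387 and 7.51 ± 0.411 FPKM, SD, n = 3 each) and RBX1 of the KEAP1 ligase (43.2 ± 3.23 and 42.3 ± 0.96 FPKM, SD, n = 3 each) overlapped between the groups. CUL3, the cullin of that ligase, was 6.52 ± 0.143 FPKM with the vector and 7.26 ± 0.193 FPKM with shYB1 (SD, n = 3 each) and did not pass (limma, BH-adjusted p = 0.0522). These 3 genes were named after their values were seen.

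Glutathione synthesis and cystine uptake held 9 tested genes, of which 2 were higher (GCLM and GSS) and 0 lower. The share higher was 22.2%, against 18.7% of all genes, of which 6.93% were lower. GCLM and GCLC are members already described above, so GSS was the only companion called higher and this share partly repeats the members. The number higher was 4 without vector replicate 3 or with the filter at 5 FPKM, against 18.6% and 26% of all genes under these settings. It was 1 without vector replicate 1 or shYB1 replicate 1, against 12.7% and 14.2% of all genes. GSS, glutathione synthetase, measured 17.9, 19.2 and 20.1 FPKM with the vector and 22.1, 21.6 and 21.7 FPKM with shYB1, all of them higher (log2 fold change 0.19, limma BH-adjusted p = 0.0153, 0.0525 without vector replicate 1 and 0.0528 without shYB1 replicate 1, from 0.00703 to 0.0528 over the alternatives). SLC3A2, the heavy chain of the cystine transporter, was the most abundant at 93.9 ± 2.85 FPKM with the vector and 101 ± 2.64 FPKM with shYB1 (SD, n = 3 each). Its log2 fold change of 0.10 fell just short (limma, BH-adjusted p = 0.0522, from 0.0217 to 0.285 over the alternatives, of which 4 called it).

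Of 20 glutathione peroxidases and transferases, 11 were tested, and 2 were higher and 2 lower. That is 18.2% each way, against 18.7% higher and 6.93% lower among all genes. GPX1, the main cytosolic glutathione peroxidase, measured 109, 108 and 122 FPKM with the vector and 139, 152 and 154 FPKM with shYB1 (log2 fold change 0.39, limma BH-adjusted p = 0.0012). Its level is uncertain to the extent that 14.7% of its 50-base words occur in other genes. MGST1, a membrane-bound glutathione transferase, moved the other way, from 19.0, 18.9 and 18.8 FPKM to 13.7, 14.8 and 13.4 FPKM (log2 fold change −0.44, limma BH-adjusted p = 0.000144). Both pairs of groups were separated by more than their own range. GSTO1 was higher (log2 fold change 0.21, limma BH-adjusted p = 0.0274) and MGST3 lower (log2 fold change −0.13, limma BH-adjusted p = 0.0448), but these calls were lost under 7 and 8 of 14 alternatives, among them most of those that leave out 1 library, with limma BH-adjusted p up to 0.0945 and 0.137. GSTT1 was not in the table, and 8 further genes were below the filter. Of these 8, GSTP1 measured 1.43, 1.44 and 1.45 FPKM with the vector and 0, 0.412 and 0.616 FPKM with shYB1, without overlap, and was named after its values were seen. GPX3 and GSTA1, also among these 8, were likewise lower without overlap, at still lower levels. The share of such genes among all genes below the filter was not computed.

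The thioredoxin and peroxiredoxin list held 14 tested genes, of which 4 were higher (TXN, TXNRD1, SRXN1 and TXNRD2) and 1 lower. These shares were 28.6% higher and 7.14% lower, against 18.7% and 6.93% of all genes. TXN, TXNRD1 and SRXN1 are members already described above. TXNRD2 was thus the only companion of this list called higher, and the share higher mostly repeats the member calls. TXNIP, which binds thioredoxin and blocks it, measured 54.0, 53.4 and 54.3 FPKM with the vector and 32.3, 34.2 and 35.4 FPKM with shYB1. It was thus far lower in shYB1 cells (log2 fold change −0.66, limma BH-adjusted p = 3.68e-06), and the difference was much larger than that of any of the 9 members. TXNRD2, the mitochondrial reductase, was higher (2.78 ± 0.2 and 3.39 ± 0.169 FPKM, SD, n = 3 each, log2 fold change 0.28, limma BH-adjusted p = 0.0253), but the call was lost under 5 of 13 alternatives, up to 0.0835 without shYB1 replicate 3. PRDX1 was the most abundant at 374 ± 21.5 and 401 ± 4.6 FPKM (SD, n = 3 each), with overlapping groups, and passed under 3 of 14 alternatives, among them a common total (0.0185) and leaving out vector replicate 3 (0.00273), against a limma BH-adjusted p of 0.089 with all libraries and up to 0.39 over the alternatives. After median-of-ratios scaling 2 genes of this list were higher, the members TXN and SRXN1, and 2 lower, against 11.2% and 12.2% of all genes.

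For the supply of NADPH, the electron donor of these systems, 5 genes were tested, of which 1 was higher and 0 lower. The share higher was 20%, against 18.7% of all genes, of which 6.93% were lower. With the filter at 5 FPKM, without vector replicate 3 or without shYB1 replicate 3, 2 were higher. Under these settings 26%, 18.6% and 14.8% of all genes were called higher. TALDO1, transaldolase, measured 59.7, 60.4 and 59.3 FPKM with the vector and 66.1, 69.6 and 67.5 FPKM with shYB1, all higher (log2 fold change 0.18, limma BH-adjusted p = 0.00353). TKT, the most abundant of the list, was 138 ± 3.51 FPKM with the vector and 143 ± 6.69 FPKM with shYB1 (SD, n = 3 each), with overlap.

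The quinone, carbonyl and drug detoxification list contained NQO1 and had more genes called lower than higher. Of 11 genes tested, 1 was higher, NQO1 itself, which is 9.09% against 18.7% of all genes. Another 4 were lower, which is 36.4% against 6.93% of all genes, and 6 were not called. The number higher ran from 1 to 3 over the alternatives, with 3 at the filter of 5 FPKM and 2 without shYB1 replicate 2. Under these 2 settings 26% and 12.8% of all genes were called higher. AKR1C3, an aldo-keto reductase of steroids and prostaglandins, measured 8.42, 9.97 and 10.1 FPKM with the vector and 6.07, 5.99 and 5.05 FPKM with shYB1 (log2 fold change −0.72, limma BH-adjusted p = 0.00044). EPHX1, microsomal epoxide hydrolase, fell from 60.9 ± 1.15 to 46.4 ± 2.27 FPKM (SD, n = 3 each, log2 fold change −0.39, limma BH-adjusted p = 0.000126). AKR1B1, aldose reductase and the most abundant of the list, fell from 721, 708 and 744 FPKM to 582, 587 and 604 FPKM (log2 fold change −0.29, limma BH-adjusted p = 0.000166). In all 3 the groups did not overlap. ABCC3, an efflux pump that was named after its values were seen, was the fourth (31.1 ± 0.816 and 25.3 ± 0.515 FPKM, SD, n = 3 each). These 4 genes carry opposite signs to NQO1 with both scalings.

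Heme breakdown and iron storage held 8 tested genes, with 1 higher and 1 lower. Without vector replicate 1 or with the filter at 5 FPKM 2 were higher, against 12.7% and 26% of all genes. With all libraries the shares were 12.5% each way, against 18.7% higher and 6.93% lower among all genes. BLVRA, the biliverdin reductase that acts after heme oxygenase, measured 21.2, 21.4 and 22.0 FPKM with the vector and 24.6, 24.7 and 26.1 FPKM with shYB1 (log2 fold change 0.22, limma BH-adjusted p = 0.00344). FTH1, the ferritin heavy chain and the most abundant gene of all lists, measured 3170.1, 3185 and 3315 FPKM with the vector and 2635, 2587 and 2726 FPKM with shYB1 (log2 fold change −0.28, limma BH-adjusted p = 0.000245). The FTH1 to FTL ratio was 1.26 ± 0.016 in vector and 1.05 ± 0.0174 in shYB1 cells (SD, n = 3 each), so the heavy chain was lower relative to the light chain in every shYB1 library. FTH1 shares 19.9% of its 50-base words with other genes and is overlapped on the opposite strand over 62.4% of its exonic bases, which makes its level uncertain. FTL shares 18.3% of its 50-base words with other genes, so the ratio is uncertain as well.

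The largest log2 fold change among the 67 companions tested was that of SOD2. This mitochondrial superoxide dismutase measured 154, 158 and 157 FPKM with the vector and 71.8, 71.5 and 69.2 FPKM with shYB1. Every shYB1 library was far below every vector library, with a log2 fold change of −1.14 (SE 0.0309, limma BH-adjusted p = 1.53e-08). SOD1, the cytosolic enzyme and the most abundant of the 4 genes for superoxide and hydrogen peroxide removal, went up from 158, 157 and 173 FPKM to 182, 179 and 183 FPKM (log2 fold change 0.16, limma BH-adjusted p = 0.017). The SOD1 call was lost under 5 of 14 alternatives, among them median-of-ratios scaling (0.0685) and leaving out vector replicate 1 (0.0672) or 2 (0.0612) or shYB1 replicate 1 (0.0543), all limma BH-adjusted p. Of the 4 genes, 1 was higher and 1 lower. Without vector replicate 2, 2 were lower, against 5.39% of all genes under that setting. With all libraries the shares were 25% each way, against 18.7% higher and 6.93% lower among all genes.

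**Figure D5:**
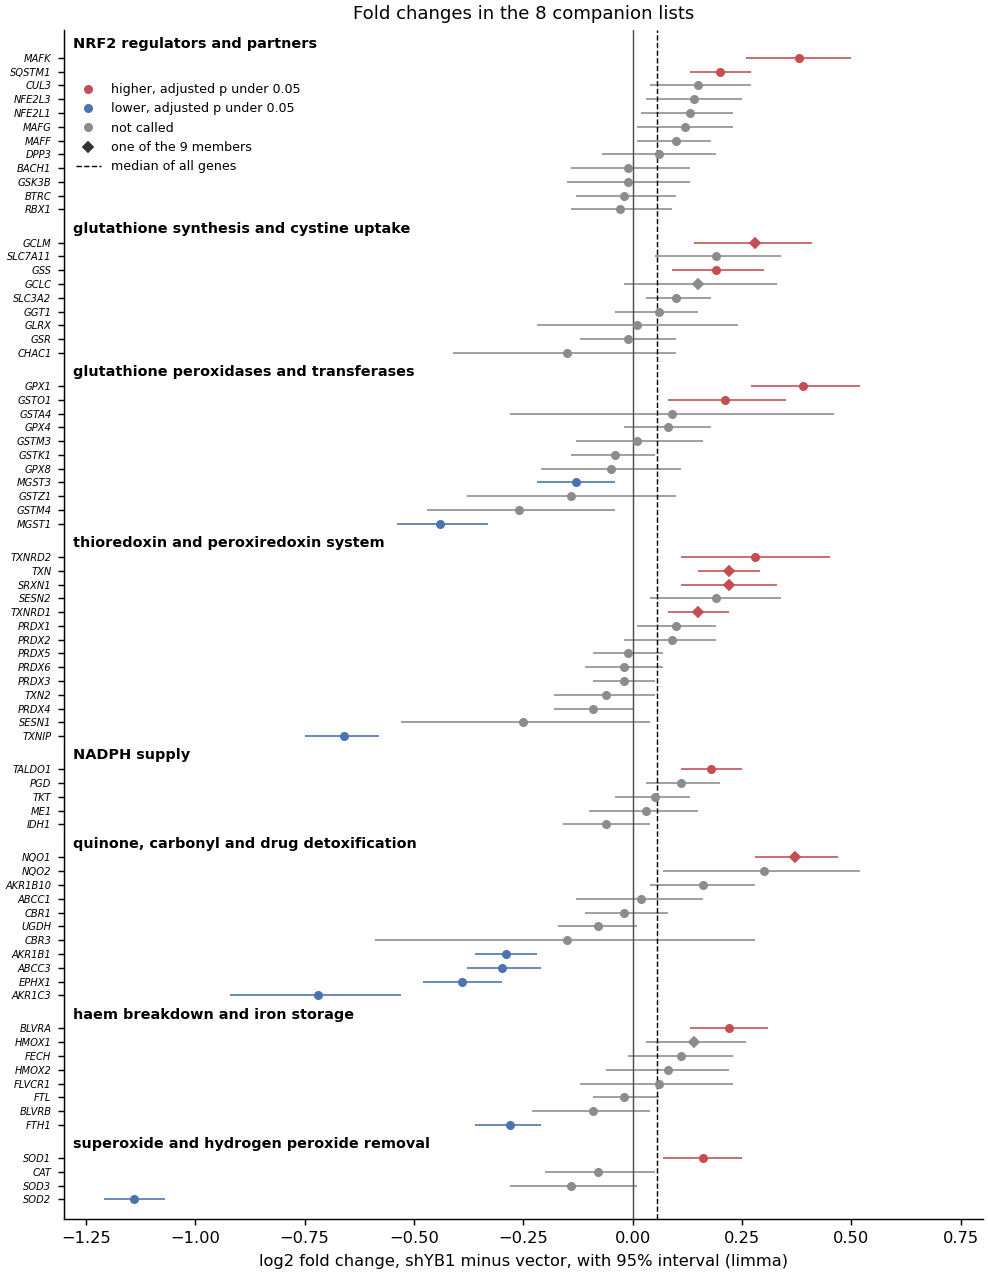
Log2 fold change, shYB1 minus vector, with its 95% interval (limma) for each tested gene of the 8 companion lists, with the 7 target genes of NRF2 drawn as diamonds and calls at an adjusted p under 0.05 in color. SOD2 (−1.14), AKR1C3 (−0.72) and TXNIP (−0.66) lie farthest from 0, and the diamonds lie between 0.14 and 0.37.

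Pathways annotated in the deposited table gave a similar mixture. KEGG glutathione metabolism without the members held 30 tested genes, of which 7 were higher (23.3%, against 18.7% of all genes) and 3 lower (10%, against 6.93%), with a median log2 fold change of 0.00. GGCT, gamma-glutamylcyclotransferase, rose from 12.8 ± 0.684 to 18.1 ± 1.07 FPKM (SD, n = 3 each, log2 fold change 0.50, limma BH-adjusted p = 0.000215). SRM, spermidine synthase, which the pathway holds for its link to polyamines, rose from 17.3 ± 1.16 to 23.7 ± 1.64 FPKM (SD, n = 3 each, log2 fold change 0.45, limma BH-adjusted p = 0.000838). The lower genes included MGST1 and MGST3, and 6 were lower after median-of-ratios scaling, against 12.2% of all genes. The number lower was 1 without vector replicate 2 or 3, without shYB1 replicate 1 or 3, and without a variance trend. Under these settings 5% to 5.81% of all genes were called lower.

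KEGG ferroptosis, the iron-dependent death by lipid peroxidation that glutathione restrains, held 28 tested genes besides the members, with 7 higher and 7 lower, which is 25% each, against 18.7% higher and 6.93% lower among all genes. After median-of-ratios scaling 5 were higher and 8 lower, against 11.2% and 12.2% of all genes. TFRC, the transferrin receptor, measured 26.7, 28.7 and 27.2 FPKM with the vector and 33.9, 34.1 and 31.8 FPKM with shYB1 (log2 fold change 0.27, limma BH-adjusted p = 0.00166). CP, the copper oxidase ceruloplasmin, measured 24.8, 25.0 and 23.6 FPKM with the vector and 14.9, 15.7 and 15.3 FPKM with shYB1 (log2 fold change −0.67, limma BH-adjusted p = 4.58e-06). The mRNA differences of TFRC, which takes up iron, and of FTH1, which stores it, thus had opposite signs, and both pairs of groups were apart. The FTH1 level is uncertain, as stated above, and iron uptake and storage were not measured. ACSL3, a long-chain acyl-CoA synthetase, was higher (log2 fold change 0.24, limma BH-adjusted p = 0.00402) and SAT1, which acetylates polyamines, was lower (log2 fold change −0.37, limma BH-adjusted p = 0.000147). The number called higher was 4 of 28 without vector replicate 1 or shYB1 replicate 1. That share is near those of all genes under these settings, 12.7% and 14.2%.

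The genes whose pattern over the 6 libraries was most like that of NQO1, the member with the smallest limma p, were sought among all genes tested. The measure was the root-mean-square distance between the log2(FPKM + 0.1) values of each gene, centred on its own mean. SLFN5 was nearest at 0.011, with 3.34, 3.18 and 3.08 FPKM with the vector and 4.11, 4.24 and 4.02 FPKM with shYB1. DDX21 (0.0202), TSR1 (0.0235), RUVBL1 (0.0238) and ZWILCH (0.0249) followed. The nearest of the other members was TXN at 0.0882 and the farthest NFE2L2 at 0.25. For comparison, 537 of the 10430 tested genes that are not members (5.15%) were nearer to NQO1 than TXN was.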

How the data were processed

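Libraries of 786-O cells with a scrambled (vector) or YB1 shRNA (shYB1), 3 each, were assigned to groups by their labels. The authors deposited FPKM per gene. Their processing notes name Trimmomatic, HISAT2, Cufflinks, HTSeq and DESeq and the GRCh38 build, without versions or settings, and the methods speak of a microarray analysis although the values are from sequencing. Every per-library column entered the analysis (0 unmapped). Fragment counts were not used here, so no count test was run, and relative depth came from values under 0.08 FPKM.

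The groups were compared on log2(FPKM + 0.1) for the 10439 genes averaging 1 FPKM or more. The two-sided test was that of limma 3.58.1 under R 4.3.3, using lmFit, then eBayes with a trended robust prior. The p-values of the 10439 genes were adjusted together (Benjamini-Hochberg), and a gene was called at an adjusted p under 0.05. Single ratios and members were also compared with two-sided exact permutation tests over libraries. Tables and figures were made with Python 3.11.15, NumPy 2.4.6, pandas 2.3.3 and matplotlib 3.10.9. Coordinates and promoter windows are from RefSeq (GRCh38.p14), matched by the gene identifier given in the deposited table. Shared words and overlaps are from GENCODE release 29, matched by symbol.

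The members and lists were chosen with earlier results of these data known. A companion gene and a pathway, and the results that need them, are not reported here. Named genes are the members, YBX1, up to 2 called genes with the largest change each way and the most abundant gene of each companion list, up to 2 called genes each way of the KEGG pathways, and the 5 genes most like the member with the smallest p. The alternatives tried were other pseudocounts (1 and 0.01), other filters (none, or a mean of 5 FPKM), median-of-ratios scaling, a common total (TPM), a variance prior without trend, a replicate block, and each library left out in turn.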

Additional observations from a re-analysis of the deposited data

How the results depend on the processing

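Over 14 alternatives, 114 of 126 log2 fold changes of the members kept their direction and their side of the threshold, 9 lost the call (8 of NFE2L2 and 1 of TXNRD1), 2 gained it (HMOX1) and 1 reversed. The count of members called higher ran from 4 to 6. That of members called lower, 1 with all libraries, was 0 with no filter, with a common total and without a variance trend, and 0 to 1 when a library was left out. No member met the criteria of a fold change of 2 under any alternative. Median-of-ratios scaling moved the calls over all genes to 1169 higher and 1270 lower, from 1956 and 723. The log2 fold change of KEAP1, not called, was 0.009 without vector replicate 3 and −0.070 without vector replicate 1, and that of TKT −0.009 with median-of-ratios scaling. The cause of these shifts was not tested. Of 363 values of the named companions, 328 kept direction and side, 27 lost the call and 7 gained it.

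With the replicate block, 5 members were higher and 1 lower, and over all genes 2074 were higher and 760 lower. The deviations of samples with the same number correlated at −0.169, −0.059 and −0.00824, and no sample correlated best with its own number, so the numbers were not taken to pair the samples. Depth in fragments is unknown and no detection limit was computed.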
